A study of Mus musculus with 4 samples.

Results

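The vascular endothelial growth factor (VEGF) family genes examined here are the ligand genes Vegfa, Vegfb, Vegfc and Pgf, the receptor tyrosine kinase genes Kdr, Flt1 and Flt4, and the neuropilin co-receptor genes Nrp1 and Nrp2. They were taken by symbol, with no cut on a measured value, and make up 9 of the 39179 gene identifiers in the deposited count table. All 9 passed the filter on low counts. The RNA came from cardiac progenitor cells made from a mouse embryonic stem cell line in which Gata6 can be induced, and the labels do not say whether it was induced in these libraries. The treated cells received cucurbitacin I hydrate at 10 µM, and the control cells received DMSO (0.1% of the medium). Cucurbitacin I is a plant triterpenoid that blocks signalling from JAK kinases to STAT factors. Exposure began on day 6 and lasted 2 days by the series text. Titles of the samples give day 8, but day 10 is the harvest day in the protocol for RNA extraction. Each group had 2 libraries, and no label says that they came from different cultures. The p-values therefore reflect variation among these 4 libraries, part or all of which may be technical.

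VEGF ligands are secreted and bind the tyrosine kinase receptors, which are best known on endothelial cells. VEGF-A signals mainly through the product of Kdr, whereas VEGF-B and placental growth factor bind the product of Flt1, and VEGF-C binds the product of Flt4 and guides lymphatic growth. Neuropilins hold VEGF ligands near these receptors and also bind class 3 semaphorins, which steer axons and vessels. In the embryo, Kdr also marks the mesoderm from which heart, endothelium and blood arise.

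Total counts per library were 23759431 to 27069312. The levels below are CPM, counts scaled to the library total after TMM adjustment. Of 12 markers of cardiac progenitors 11 were tested, with 4 lower and 1 higher, beside 19.5% lower and 13.9% higher among all genes tested. The summed marker level was 1000 and 1360 CPM in cucurbitacin I and 1450 and 1580 CPM in DMSO. The lower ones were Hand1 (log2 fold change -3.38), Pdgfra (-2.46), Isl1 (-2.29) and Hand2 (-0.91). Gata4, Gata6 and Hand2 had the highest means over all 4 libraries, and Gata4 and Gata6 did not pass. In DMSO alone the mean of Pdgfra was 256 CPM and that of Gata4 was 255 CPM. The early mesodermal marker Mesp1 had 0 counts in each cucurbitacin I library and 1 count in each DMSO library, too few to be tested. Endothelial markers were scarce, with a summed level of 67.2 and 70.5 CPM in cucurbitacin I and 120 and 185 CPM in DMSO.

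Most of the family was lower in the cucurbitacin I libraries. Of the 9 members, 6 were lower and 0 higher in edgeR's quasi-likelihood test (adjusted p below 0.05), in which 19.5% of all 16722 genes tested were lower, 13.9% higher and 33.4% either. Kdr had the largest fall, followed by Vegfc, Flt4, Nrp2, Vegfa and Pgf. Flt1, Vegfb and Nrp1 did not pass, and Nrp1 was the member with a positive log2 fold change. At an unadjusted p below 0.05 Nrp1 was also past the threshold (unadjusted p = 0.0397 with edgeR's quasi-likelihood test). DESeq2 as run here called it higher (adjusted p = 0.026), but the authors' deposited DESeq2 comparison did not (adjusted p = 0.0866). The groups did not overlap in 8 members, 7 lower and 1 higher, against 37.4% of all genes tested lower without overlap and 35.6% higher. The median log2 fold change was -1.05 over the 9 members and -0.01 over all genes tested.

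**Figure D1:**
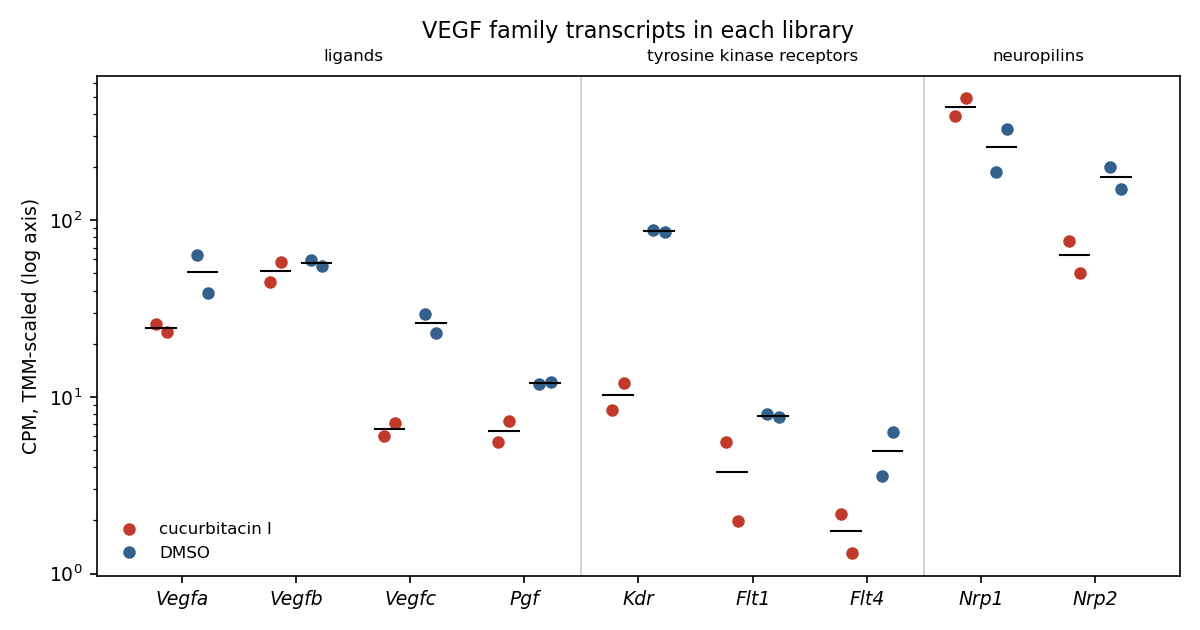
Level of each VEGF family gene in each library, in TMM-scaled CPM on a log axis; points are libraries (cucurbitacin I in red, DMSO in blue) and bars are means of 2 libraries. Kdr lies at 8.48 and 12 CPM in cucurbitacin I and 87.7 and 85.7 CPM in DMSO, and only the points of Vegfb overlap between groups.

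Promoter sequence is shown for the 3 members with the smallest adjusted p, Kdr, Vegfc and Nrp2, and for Nrp1, the member with the opposite sign. Sequences are from RefSeq (GRCm38.p6), read 5′ to 3′ up to the RefSeq start or to the nearest GENCODE exon base. Capitals mark the GC box, GGGCGG or its complement CCGCCC.
Kdr, chr5:75978459-75978705, minus strand: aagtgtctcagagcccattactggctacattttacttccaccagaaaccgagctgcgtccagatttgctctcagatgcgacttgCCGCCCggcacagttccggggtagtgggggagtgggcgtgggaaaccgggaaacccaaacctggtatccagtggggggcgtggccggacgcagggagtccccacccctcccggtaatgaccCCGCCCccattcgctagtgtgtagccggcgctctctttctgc
Vegfc, chr8:54077282-54077531, plus strand: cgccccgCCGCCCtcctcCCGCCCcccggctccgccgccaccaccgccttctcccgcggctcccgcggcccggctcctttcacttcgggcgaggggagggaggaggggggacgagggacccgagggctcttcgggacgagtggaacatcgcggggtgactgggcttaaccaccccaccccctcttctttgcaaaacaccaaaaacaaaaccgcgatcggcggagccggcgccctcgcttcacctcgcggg
Nrp2, chr1:62703067-62703284, plus strand: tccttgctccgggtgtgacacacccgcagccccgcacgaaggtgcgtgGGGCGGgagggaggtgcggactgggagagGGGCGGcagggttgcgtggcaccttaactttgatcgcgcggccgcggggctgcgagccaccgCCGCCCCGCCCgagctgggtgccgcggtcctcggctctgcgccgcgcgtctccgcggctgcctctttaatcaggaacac
Nrp1, chr8:128358823-128359072, plus strand: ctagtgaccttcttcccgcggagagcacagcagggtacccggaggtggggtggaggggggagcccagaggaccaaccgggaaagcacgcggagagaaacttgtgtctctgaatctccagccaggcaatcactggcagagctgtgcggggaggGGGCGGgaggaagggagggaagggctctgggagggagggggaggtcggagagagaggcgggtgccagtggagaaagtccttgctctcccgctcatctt
Sp family factors can bind the GC box. On either strand, it was found in the 250 bases upstream of the RefSeq start of all 9 members. It was in 32.7% of 32851 mouse promoter windows of the same length. The windows of Pgf, Kdr, Flt4 and Nrp2 overlapped an annotated exon. The RefSeq start of Flt4 lay 416 bases inside the deposited gene. The members' windows were also richer in G and C, at 59.2% to 76.4% against a median of 52.4%. The ETS core GGAA was in 8 members and 93.4% of windows. Of the hypoxia response cores, GCGTG was in 6 members and 28.2% of windows, and ACGTG in 0 members and 16.6% of windows. The STAT motif TTCNNNGAA was in 0 members and 7.02% of windows. Of 24 GC boxes in the 9 windows, 0 shared bases with another motif searched. A match describes letters in a short window. The 4 stretches held 2 GC boxes in Kdr, 2 in Vegfc, 4 in Nrp2 and 1 in Nrp1, so the 3 that fell and Nrp1 all carried it.

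Among the ligands, Vegfc fell most. Vegfc, encoding the lymphatic growth factor VEGF-C (ENSMUSG00000031520, mm10 chromosome 8, 54077532 to 54186454), had 147 and 158 counts in cucurbitacin I and 877 and 627 counts in DMSO. Its level was 6.58 ± 0.788 CPM in cucurbitacin I and 26.2 ± 4.40 CPM in DMSO (SD, n = 2 each), a log2 fold change of -1.99 (SE 0.19, edgeR adjusted p = 0.00308). Both cucurbitacin I libraries lay well below both DMSO libraries, and the gap exceeded the spread within either group.

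Vegfa, the main ligand of Kdr (ENSMUSG00000023951, chromosome 17, 46016993 to 46032377), had 635 and 518 counts in cucurbitacin I and 1907 and 1048 counts in DMSO. That was 24.7 ± 1.85 CPM in cucurbitacin I and 51.1 ± 17.8 CPM in DMSO (SD, n = 2 each; log2 fold change -1.05, SE 0.25, edgeR adjusted p = 0.0262). The DMSO libraries differed 1.65-fold from each other, and DMSO replicate 1 was the high library. Without it the log2 fold change was -0.64 and the gene did not pass (edgeR adjusted p = 0.072). The counts sum all Vegfa splice forms, among which the heparin-binding and freely diffusing forms of VEGF-A cannot be separated.

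Pgf, which encodes placental growth factor, a ligand of Flt1 (ENSMUSG00000004791, chromosome 12, 85166639 to 85177296), had 135 and 162 counts in cucurbitacin I and 354 and 329 counts in DMSO. Its level was 6.43 ± 1.26 CPM in cucurbitacin I and 12 ± 0.20 CPM in DMSO (SD, n = 2 each; log2 fold change -0.90, SE 0.20, edgeR adjusted p = 0.0236). The groups did not overlap. The edgeR adjusted p was 0.1 without DMSO replicate 1, 0.091 without DMSO replicate 2 and 0.063 without cucurbitacin I replicate 1, which ended the call, and 0.016 without cucurbitacin I replicate 2, which kept it.

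Vegfb, the ligand with the highest level per length (ENSMUSG00000024962, chromosome 19, 6982473 to 6987651), had 1091 and 1286 counts in cucurbitacin I and 1782 and 1504 counts in DMSO. It was at 51.4 ± 9.47 CPM in cucurbitacin I and 57.4 ± 2.95 CPM in DMSO (SD, n = 2 each; log2 fold change -0.16, SE 0.15, edgeR adjusted p = 0.433). The library values interleaved, with cucurbitacin I replicate 2 between the DMSO libraries, and the sign turned without cucurbitacin I replicate 1 (0.02). The remaining ligand gene of mammals, listed under its older symbol Figf and now called Vegfd, is not among the 9 and was taken from a list of receptor partners. Figf was at 2.92 ± 0.658 CPM in cucurbitacin I and 13.5 ± 5.51 CPM in DMSO (SD, n = 2 each; log2 fold change -2.21, edgeR adjusted p = 0.0102).

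Among the receptors, Kdr stood out by size. Kdr, the main signalling receptor of VEGF-A (ENSMUSG00000062960, chromosome 5, 75932827 to 75978458), had 207 and 265 counts in cucurbitacin I and 2625 and 2328 counts in DMSO. It was at 10.2 ± 2.47 CPM in cucurbitacin I and 86.7 ± 1.42 CPM in DMSO (SD, n = 2 each; log2 fold change -3.09, SE 0.18, edgeR adjusted p = 0.00152). The cucurbitacin I libraries differed 1.41-fold and the DMSO libraries 1.02-fold, so the 8.48-fold difference of means was far wider than either spread. In bulk RNA, fewer Kdr-bearing cells and less Kdr RNA per cell cannot be told apart.

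Flt1, which encodes a receptor that binds VEGF-A tightly and signals weakly (ENSMUSG00000029648, chromosome 5, 147561604 to 147726011), had 135 and 44 counts in cucurbitacin I and 239 and 208 counts in DMSO. Its level was 3.76 ± 2.51 CPM in cucurbitacin I and 7.82 ± 0.232 CPM in DMSO (SD, n = 2 each; log2 fold change -1.05, SE 0.46, edgeR adjusted p = 0.132). Both cucurbitacin I libraries were below both DMSO libraries, but they differed 2.78-fold from each other. Without cucurbitacin I replicate 1 the gene passed (-1.97, edgeR adjusted p = 0.0065), and without cucurbitacin I replicate 2 the log2 fold change was -0.49 (edgeR adjusted p = 0.18). Gene-level counts do not separate the soluble form of the receptor from the membrane form.

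Flt4, the receptor of VEGF-C on lymphatic endothelium (ENSMUSG00000020357, chromosome 11, 49609263 to 49652739), was the member with the fewest counts in DMSO, with 53 and 29 counts in cucurbitacin I and 107 and 173 counts in DMSO. Its level was 1.74 ± 0.609 CPM in cucurbitacin I and 4.97 ± 1.98 CPM in DMSO (SD, n = 2 each; log2 fold change -1.50, SE 0.41, edgeR adjusted p = 0.0391). The groups did not overlap, and the libraries differed 1.66-fold within cucurbitacin I and 1.78-fold within DMSO. Its edgeR adjusted p was 0.051 without DMSO replicate 1, 0.16 without DMSO replicate 2 and 0.087 without cucurbitacin I replicate 2, and limma-voom gave an adjusted p of 0.052.

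The neuropilin genes had opposite signs. Nrp2, a co-receptor for VEGF-C and a receptor for semaphorin 3F (ENSMUSG00000025969, chromosome 1, 62703285 to 62818695), had 1870 and 1111 counts in cucurbitacin I and 5989 and 4111 counts in DMSO. It fell to 63.4 ± 18.7 CPM in cucurbitacin I, against 176 ± 34.5 CPM in DMSO (SD, n = 2 each; log2 fold change -1.47, SE 0.24, edgeR adjusted p = 0.0105). The groups did not overlap, and the call held without any of the 4 libraries (edgeR adjusted p of 0.0026 to 0.048).

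Nrp1, a co-receptor for VEGF-A and a receptor for semaphorin 3A (ENSMUSG00000025810, chromosome 8, 128359073 to 128505462), had 9478 and 10823 counts in cucurbitacin I and 5610 and 8976 counts in DMSO, the most counts of the family in every library but DMSO replicate 1, where Nrp2 had 5989. Its level was 439 ± 71.1 CPM in cucurbitacin I and 259 ± 101 CPM in DMSO (SD, n = 2 each; log2 fold change 0.76, SE 0.28, edgeR adjusted p = 0.0924). Both cucurbitacin I libraries were above both DMSO libraries, and DMSO replicate 1 was the low one. Without DMSO replicate 1 the log2 fold change was 0.41 (edgeR adjusted p = 0.25), and without DMSO replicate 2 it was 1.23 (edgeR adjusted p = 0.023). The authors' deposited table had an adjusted p of 0.0866 for Nrp1, and in that table the 6 members named above as lower also had an adjusted p below 0.05.

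**Figure D2:**
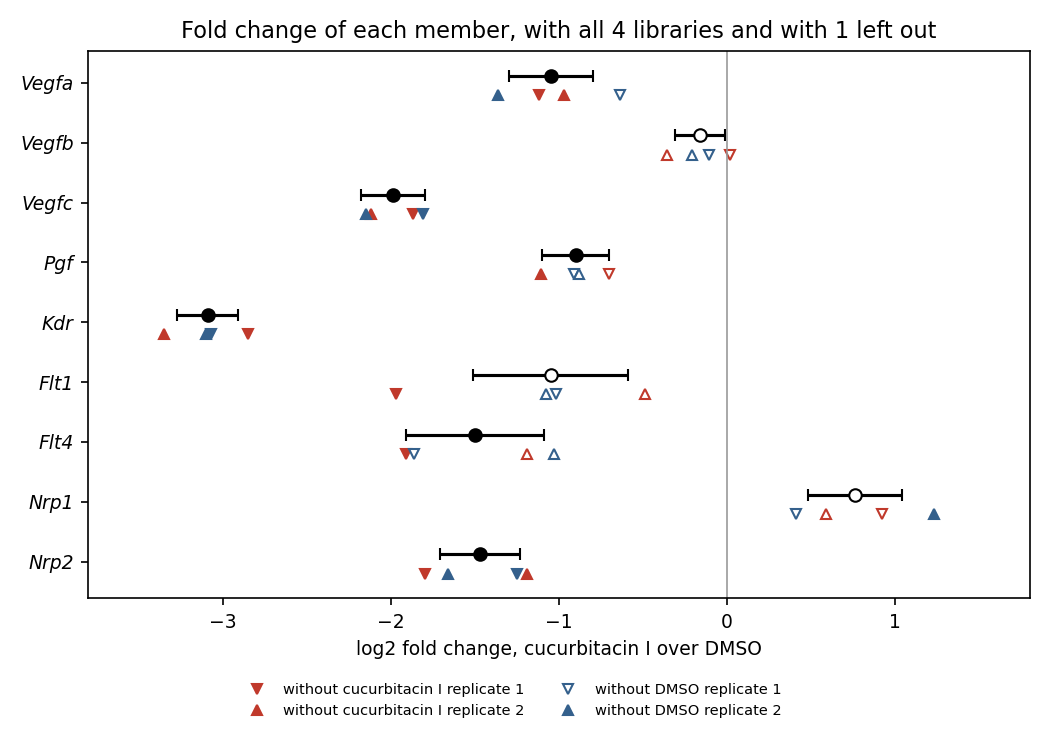
Log2 fold change of each member, cucurbitacin I over DMSO: black circles with bars are the estimate and its SE from all 4 libraries, and triangles are estimates with 1 library left out (red for a cucurbitacin I library, blue for a DMSO library; pointing down for replicate 1, up for replicate 2). Filled symbols have an edgeR adjusted p below 0.05; Kdr stays between -3.35 and -2.85, and Vegfb is the member whose sign turns.

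Levels between genes were compared as CPM per kilobase of exonic length (GENCODE M21). In cucurbitacin I the order was Nrp1 (44.9), Vegfb (32.0), Vegfa (5.77), Nrp2 (5.36), Vegfc (2.69), Pgf (2.21), Kdr (1.13), Flt1 (0.278) and Flt4 (0.212 CPM per kb). In DMSO it was Vegfb (35.8), Nrp1 (26.5), Nrp2 (14.8), Vegfa (11.9), Vegfc (10.7), Kdr (9.60), Pgf (4.12), Flt4 (0.604) and Flt1 (0.579 CPM per kb). Neighbours whose libraries overlapped were Vegfa with Nrp2, Vegfc with Pgf, and Flt1 with Flt4 in cucurbitacin I. In DMSO they were Nrp2 with Vegfa, Vegfa with Vegfc, Vegfc with Kdr, and Flt4 with Flt1. Kdr thus stood above Pgf in both DMSO libraries and below Pgf in both cucurbitacin I libraries.

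The make-up of each class differed between the groups on the same per-length scale. The summed ligand level was 38.3 and 47.1 CPM per kb in cucurbitacin I and 68.0 and 57.1 CPM per kb in DMSO. Vegfb took 72.7% and 76.9% of that sum in cucurbitacin I and 54.5% and 60.4% in DMSO, while Vegfc took 6.42% and 6.19% in cucurbitacin I and 17.6% and 16.5% in DMSO. The receptor tyrosine kinases summed to 1.61 and 1.63 CPM per kb in cucurbitacin I and 10.7 and 10.8 CPM per kb in DMSO, close agreement within each group. Kdr made up 58.2% and 81.2% of that sum in cucurbitacin I and 90.4% and 87.6% in DMSO. The neuropilin sum overlapped between groups, at 46.2 and 54.2 CPM per kb in cucurbitacin I and 36.1 and 46.5 CPM per kb in DMSO. Nrp2 accounted for 14.0% and 7.82% of it in cucurbitacin I and 46.9% and 27.5% in DMSO. These shares are descriptions of each library without a test.

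**Figure D3:**
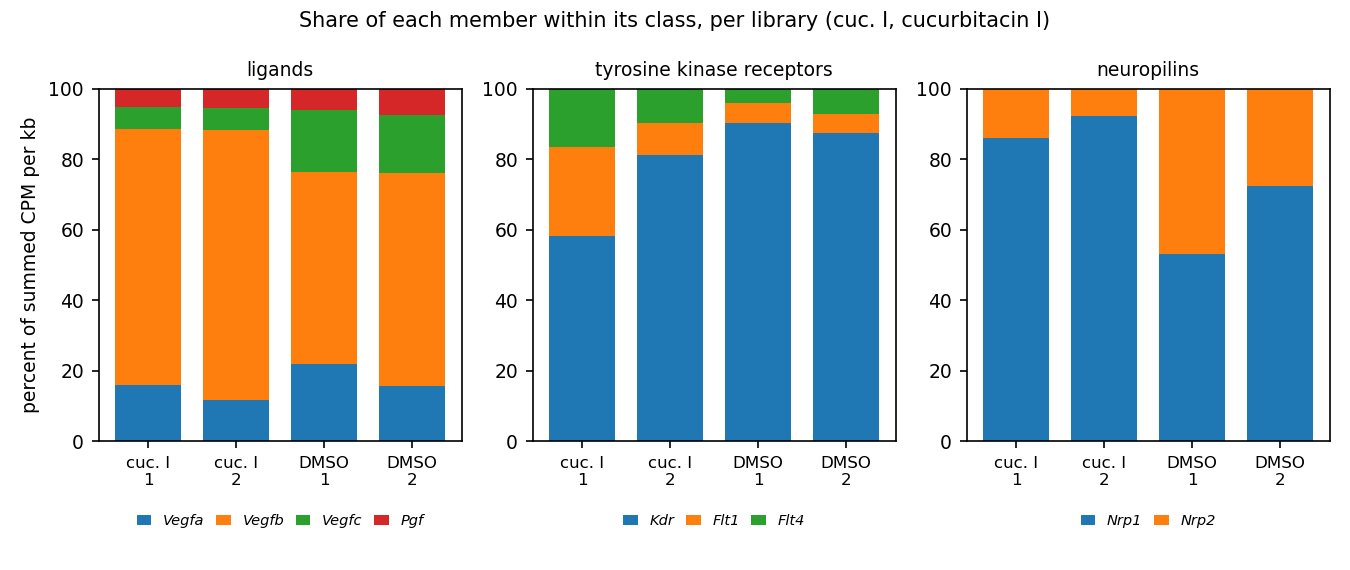
Stacked bars of the share of each member in the summed CPM per kb of its class, in percent, for each library; the panels are ligands, tyrosine kinase receptors and neuropilins. The Vegfb share of the ligands is 72.7% and 76.9% in cucurbitacin I and 54.5% and 60.4% in DMSO, and the Nrp2 share of the neuropilins is 14.0% and 7.82% in cucurbitacin I and 46.9% and 27.5% in DMSO.

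Differences between members were examined as ratios within each library, for 4 ratios. With 2 libraries against 2, a 2-sided exact permutation test cannot give a p below 0.333. The ratio of Nrp2 to Nrp1 CPM was 0.197 and 0.103 in cucurbitacin I and 1.07 and 0.458 in DMSO, a log2 difference of -2.30 with separate groups (exact permutation p = 0.333, Benjamini-Hochberg 0.444). The ratio of Flt1 to Kdr CPM was 0.652 and 0.166 in cucurbitacin I and 0.0910 and 0.0893 in DMSO, a log2 difference of 1.87 (exact permutation p = 0.333, Benjamini-Hochberg 0.444), which was 0.88 without cucurbitacin I replicate 1 and 2.85 without cucurbitacin I replicate 2. The ratio of Pgf to Vegfa CPM overlapped between groups, at 0.213 and 0.313 in cucurbitacin I and 0.186 and 0.314 in DMSO (log2 difference 0.10, exact permutation p = 1.0).

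Most endothelial markers were lower, as Kdr was. Of 24 tested, 16 were lower and 1 higher (median log2 fold change -2.11), beside 19.5% lower and 13.9% higher among all genes tested. Emcn, which encodes a vascular sialomucin, had 0 counts in cucurbitacin I and 40 over the DMSO libraries. It and other markers scarce in cucurbitacin I passed the filter only through DMSO, and could only be called lower. With a mean of at least 50 counts required, 8 markers were lower. The markers of highest level were the secreted protein gene Egfl7 (log2 fold change -1.78), the TGF-beta co-receptor gene endoglin, Eng (-2.27), and the sphingosine phosphate receptor gene S1pr1, which was higher (0.61). S1pr1 did not pass without either DMSO library (edgeR adjusted p = 0.16 without DMSO replicate 1), without cucurbitacin I replicate 1 (0.087) or with library totals alone (0.1). Without DMSO replicate 2 the lower markers numbered 10. The log2 fold change of Kdr was below that of 17 of the 24 markers and above that of 7. The ratio of Kdr to the summed markers was 0.126 and 0.170 in cucurbitacin I and 0.730 and 0.464 in DMSO, a log2 difference of -1.99 (exact permutation p = 0.333, Benjamini-Hochberg 0.444). It was -1.50 with the 3 most abundant markers left out and -1.59 as a median over markers. The part of the endothelial markers in the levels of Kdr was not tested.

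Lymphatic markers gave a mixed picture beside Flt4 and Vegfc. Of 6 tested, 4 were lower and 0 higher, beside 19.5% lower and 13.9% higher among all genes tested. Mmrn1 had 0 counts in cucurbitacin I and 109 over the DMSO libraries, and Ccl21a was at 0 in every library. Lyve1 had 28 counts over the cucurbitacin I libraries and 14 over the DMSO libraries. It did not pass (log2 fold change 1.27, edgeR adjusted p = 0.147). Prox1, the lymphatic master regulator, which heart muscle also expresses, was at 98.4 ± 0.0704 CPM in cucurbitacin I and 88.2 ± 0.937 CPM in DMSO (SD, n = 2 each; log2 fold change 0.16, edgeR adjusted p = 0.205), and its sign turned with library totals alone (-0.08). Pdpn, encoding podoplanin, had a log2 fold change of -1.12, which did not pass without DMSO replicate 1 (edgeR adjusted p = 0.068) or DMSO replicate 2 (0.051). The extracellular matrix gene Reln fell by 4.03. The part of these cells in the levels of Flt4 and Vegfc was not tested.

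**Figure D4:**
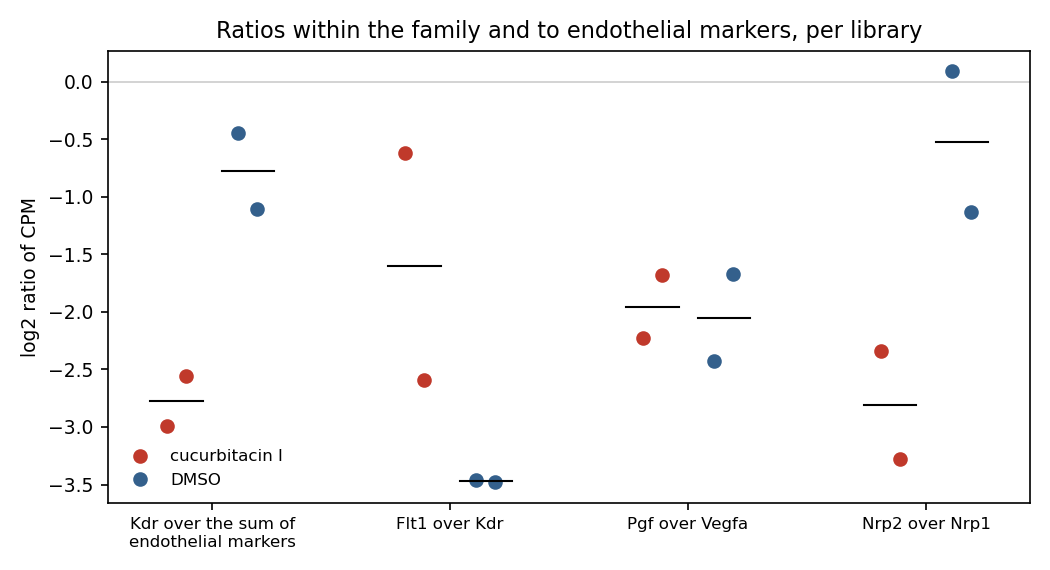
Log2 ratio of CPM in each library for Kdr over the summed endothelial markers, Flt1 over Kdr, Pgf over Vegfa and Nrp2 over Nrp1; points are libraries (cucurbitacin I in red, DMSO in blue) and bars are means of 2. The groups separate in 3 ratios and overlap for Pgf over Vegfa.

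Transcription factor genes of endothelium were largely lower. Of 21 tested factors that act at endothelial genes, 14 were lower and 2 higher (median log2 fold change -1.55), beside 19.5% lower among all genes tested. Some of these genes are also in the lists of endothelial or lymphatic markers, so their calls are counted in both. Tal1, a factor of blood and endothelial specification, was at 0.616 ± 0.407 CPM in cucurbitacin I and 9.65 ± 0.661 CPM in DMSO (SD, n = 2 each; log2 fold change -3.98, edgeR adjusted p = 0.00396). Its partner gene Lmo2 fell by 3.54 and the forkhead gene Foxc1 fell by 3.08. Mef2c, a factor of heart muscle and vessels, was higher (log2 fold change 0.63, edgeR adjusted p = 0.00831), though not without DMSO replicate 1 (0.062). Etv2, which starts the endothelial programme in the mouse embryo, had 0 counts in each cucurbitacin I library and 3 counts in each DMSO library, too few to be tested. Leaving out 1 library left 10 to 14 of these genes lower.

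Receptor partners held calls in both directions. Of 37 tested, 13 were lower and 5 higher (median -0.57), beside 19.5% lower and 13.9% higher among all genes tested. The list holds genes for proteins that bind or process VEGF receptors or ligands. It also holds the ligand gene Figf and genes of the angiopoietin pathway. Of these, Figf, Angpt1 and Tie1 were among the lower, and Tie1 is also counted as an endothelial marker. The semaphorin genes Sema3f and Sema3a, whose products bind neuropilins, were among those that fell. Sema3f was at 1.52 ± 0.348 CPM in cucurbitacin I and 17.9 ± 2.17 CPM in DMSO (SD, n = 2 each; log2 fold change -3.56, edgeR adjusted p = 0.00187). Sema3a was at 8.87 ± 3.74 CPM in cucurbitacin I and 37.1 ± 5.06 CPM in DMSO (SD, n = 2 each; log2 fold change -2.07, edgeR adjusted p = 0.00794). The syndecan gene Sdc2 fell by 1.19, and the integrin gene Itgb3 was higher (1.12), a call lost without DMSO replicate 1 (edgeR adjusted p = 0.056) or DMSO replicate 2 (0.054). Without DMSO replicate 1 the list had 8 lower and 0 higher, without DMSO replicate 2 it had 9 lower and 2 higher, and without cucurbitacin I replicate 2 it had 14 lower and 9 higher.

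Genes of the signal inside the cell mostly did not pass, and of all genes tested 33.4% passed in either direction. Of 46 tested, 7 were lower and 5 higher (median 0.08), beside 19.5% lower and 13.9% higher among all genes tested. Plcg1, encoding the phospholipase that docks on the Kdr receptor, was at 153 ± 11.5 CPM in cucurbitacin I and 223 ± 5.95 CPM in DMSO (SD, n = 2 each; log2 fold change -0.55, edgeR adjusted p = 0.0154). Its adjusted p was 0.089 without DMSO replicate 1, 0.055 without DMSO replicate 2 and 0.053 without cucurbitacin I replicate 1 (edgeR). The phospholipase gene Pla2g4a fell by 2.23 and the adaptor gene Shc2 fell by 0.96, though Shc2 did not pass without DMSO replicate 1 (edgeR adjusted p = 0.057). Hspb1, a small heat shock protein gene and a target of p38 kinase signalling, was higher (log2 fold change 1.61, edgeR adjusted p = 0.00307). With library totals alone 12 were lower and 2 higher. Without DMSO replicate 1 the counts were 1 lower and 2 higher, and without DMSO replicate 2 they were 2 lower and 2 higher.

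Genes known to respond to VEGF in endothelium held more lower than higher calls. Of 25 tested, including Pgf itself, 9 were lower and 2 higher (median -0.22), beside 19.5% lower and 13.9% higher among all genes tested. Esm1, an endothelial tip cell gene, was at 0 in every library. The apelin receptor gene Aplnr had a log2 fold change of -4.47 from levels of 0.0841 ± 0.055 CPM in cucurbitacin I and 2.00 ± 0.284 CPM in DMSO (SD, n = 2 each). The adhesion molecule gene Icam1 fell by 3.26 and the Notch target gene Hey1 fell by 2.55. Rcan1, a calcineurin inhibitor gene, was higher (0.52, edgeR adjusted p = 0.0216), and passed without cucurbitacin I replicate 2 but not without any other library (edgeR adjusted p of 0.053 to 0.1) or with library totals alone (0.11). Without DMSO replicate 1, and likewise without DMSO replicate 2, 5 were lower and 0 higher. Without cucurbitacin I replicate 1 the list had 7 lower and 0 higher, and without cucurbitacin I replicate 2 it had 10 lower and 5 higher.

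Vegfa responds to low oxygen. The list of hypoxia genes, which holds genes of HIF subunits and their regulators as well as induced genes, showed no common direction. Of 37 tested, 6 were higher and 5 lower (median -0.02), beside 13.9% higher and 19.5% lower among all genes tested. The carbonic anhydrase gene Car9 was at 43.3 ± 0.114 CPM in cucurbitacin I and 5.59 ± 1.20 CPM in DMSO (SD, n = 2 each; log2 fold change 2.95, edgeR adjusted p = 0.00159). The oxidoreductase gene Ero1l (0.94) and the glycolytic gene Aldoa (0.80) were higher, and the HIF partner gene Arnt2 fell by 3.48. Without DMSO replicate 1 neither Ero1l nor Aldoa passed (edgeR adjusted p for Aldoa 0.068), nor did Aldoa without DMSO replicate 2 (0.053). Vegfa fell while Car9 was higher in the same libraries. Besides Arnt2, the lower genes of the list were Egln3 (-2.26), Slc2a3 (-1.84), Pdk1 (-0.94) and Pfkl (-0.86), against the 6 higher. With library totals alone 3 were higher and 11 were lower. The higher genes numbered 1 without DMSO replicate 1 and 2 without DMSO replicate 2.

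**Figure D5:**
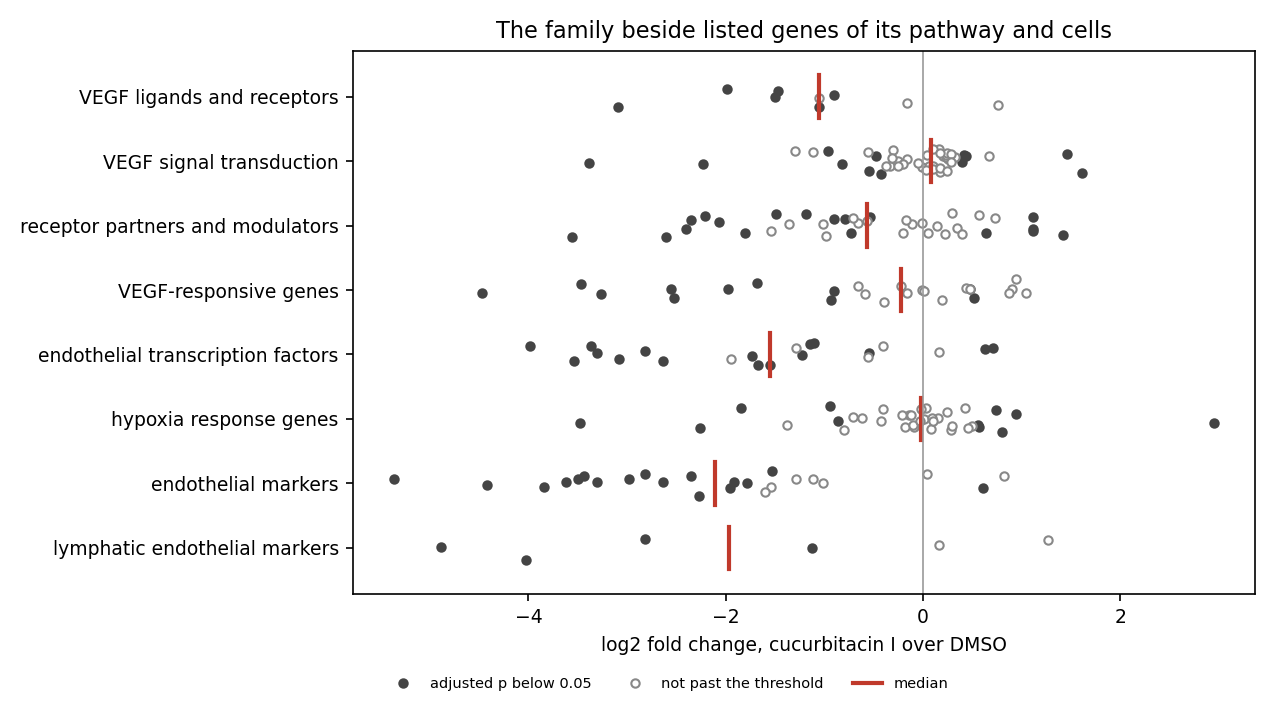
Log2 fold change, cucurbitacin I over DMSO, of the 9 VEGF family genes and of each tested gene in 7 lists; filled points have an edgeR adjusted p below 0.05 and red bars are medians. Genes at 0 counts in cucurbitacin I are drawn at the bound set by 3 counts over the group, and the medians run from -2.11 for endothelial markers to 0.08 for VEGF signal transduction.

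Other cell types were measured through their markers in the same libraries. Among all genes tested, 19.5% were lower and 13.9% higher. Neural and neural crest markers, relevant because such cells carry neuropilins, were lower in 9 of 12 and higher in 1, with 5 lower without DMSO replicate 1 and 6 without DMSO replicate 2. Their summed level was nonetheless 424 and 232 CPM in cucurbitacin I and 173 and 167 CPM in DMSO, of which the intermediate filament gene Nes, also used by muscle precursors, was 382 and 203 CPM in cucurbitacin I and 82.3 and 87.3 CPM in DMSO. Smooth muscle and mural markers, which include cells that bear Nrp1, summed to 36000.0 and 27000.0 CPM in cucurbitacin I and 4540.0 and 6210.0 CPM in DMSO, with 7 of 15 higher and 5 lower. Contractile genes made up most of that sum: Acta2, encoding smooth muscle actin, was at 23500.0 and 17100.0 CPM in cucurbitacin I and 2840.0 and 3820.0 CPM in DMSO, and Tagln was at 9390.0 and 5980.0 CPM in cucurbitacin I and 631 and 1120.0 CPM in DMSO. The 5 lower genes were those used to mark pericytes and other mural cells: Rgs5 (log2 fold change -5.56), Pdgfrb (-3.66), Cspg4 (-1.82), Kcnj8 (-1.68) and Notch3 (-0.81). Cardiomyocyte markers summed to 19500.0 and 24700.0 CPM in cucurbitacin I and 9870.0 and 12600.0 CPM in DMSO, with 8 of 15 higher and 1 lower, and 2 higher without DMSO replicate 1. Of 14 myeloid and blood markers 12 were lower, as were 13 of 14 endoderm markers and 20 of 20 cell division genes, with 0 higher in each. The part of these cells in the levels of the VEGF family was not tested.

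For each member that passed, the 3 genes with the most similar profile over the 4 libraries were found by the Euclidean distance of mean-centred log2 CPM. Nearest to Kdr were Npr3 (distance 0.17), a natriuretic peptide clearance receptor gene, Sned1 (0.23) and Fam163a (0.26). Vegfc had Clic6 (0.068), the linker histone gene H1f0 (0.12) and Nsg1 (0.12), and Vegfa had Fam169a (0.072), Trim72 (0.085) and Cmtm8 (0.11). Nearest to Nrp2 were the Hedgehog effector gene Gli2 (0.11), Tpbg (0.11) and Rims2 (0.15). Nearest to Pgf were Ccdc102a (0.03), Rab36 (0.056) and the kinase gene Pdk1 (0.066), and nearest to Flt4 were the collagen gene Col11a1 (0.19), Plxnd1 (0.29) and Gcnt1 (0.32). With 4 libraries these distances are descriptions.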

How the data were processed

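RNA sequencing libraries were made with a TruSeq kit from total RNA of 4 samples, per the labels' protocols. The submitters' processing notes name STAR 2.3.0e, HTSeq 0.6.0 and mm10. Neither the annotation release nor the strand setting was given in the sources used here. In a single table the authors deposited whole-number counts per gene and library, a normalized signal (the count divided by a size factor, which was not used here), and, per the file headers, a log2 fold change, its standard error, a test statistic (a score without fixed range), a p-value and an adjusted p-value. From these columns only the authors' adjusted p-values are quoted.

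Lines repeating an identifier (4195 of 43374) were left out. The quasi-likelihood test of edgeR 4.0.16 (glmQLFit, glmQLFTest, 2-sided; R 4.3.3) was run on the counts after TMM scaling and filterByExpr at a minimum of 10. Benjamini-Hochberg adjustment covered 16722 genes, with calls made below 0.05. In every list, a gene scarce in cucurbitacin I could pass the filter through DMSO alone, and could then only be called lower. SE is |log2 fold change| over √F. Total counts were 23759431 to 27069312 per library, and depth limits mainly Flt4 and Flt1. Exonic lengths are from GENCODE M21, whose gene ends differ from the deposited ones in 4 members. No other gene with counts shares exon bases with a member.

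The members and lists were chosen with earlier results of these data known. Named genes are the 9 members, for each pathway list the genes past the threshold with the smallest adjusted p (3 in the more frequent direction and 1 in the other), up to 3 markers per list by level, and 3 nearest profiles per member among genes of at least 5 CPM. Figf, Hand1, Pdgfra, Isl1, Rgs5, Pdgfrb, Cspg4, Kcnj8, Notch3, Emcn, Mmrn1, Lyve1, Mesp1, Etv2, Esm1, Ccl21a, Egln3, Slc2a3 and Pfkl are outside this rule. So are the genes of the closing observations. All of these were picked with their values in view. The alternatives were DESeq2 1.42.0, limma-voom (limma 3.58.1), other scalings and filters, a replicate block, each library left out, and other thresholds.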

Additional observations from a re-analysis of the deposited data

How the results depend on the processing

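Of 14 alternatives, Kdr and Vegfc kept their call in all 14, and Nrp2 in the 13 others than a threshold of 0.01. Between 2 and 6 members were lower: 3 in a test against a 1.5-fold change and 2 at an adjusted p below 0.01, against 6 in the main setting. Leaving out 1 library gave 3 to 6 lower and 0 to 1 higher. Nrp1 was called higher, making 1 member higher, with DESeq2, with no filter and with the replicate block. The replicate numbers do not pair the libraries by any label. Deviations of same-numbered libraries from their group means correlated at 0.242, and with the number as a block 2660 genes were higher and 3707 lower; the block changed no other call of a member. Vegfb ranged over -0.36 to 0.02 with 1 library left out, turning sign without cucurbitacin I replicate 1, and Prox1 did so with library totals alone (-0.08). The Pgf to Vegfa log2 difference turned without DMSO replicate 1 (-0.28) and without cucurbitacin I replicate 2 (-0.18), a range of -0.28 to 0.47. Over all genes, 1059 were higher with library totals alone, where the all-gene median was -0.24 (log2) and 18.2% of calls were higher in place of 41.6%. A test against a 1.5-fold change called 375 higher and 1666 lower, and a threshold of 0.01 called 492 and 1262. Leaving out 1 library called 389 to 2109 higher and 1461 to 3001 lower, lowest without DMSO replicate 1. Where a library was left out, the remaining one is taken to be as variable as the opposite group. Depth limits Flt4, with as few as 29 counts in a library.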

Other observations

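Other vascular ligand and receptor genes of the same lists, chosen after their values were seen, also differed between the groups. In the angiopoietin pathway, which stabilises vessels, Angpt1 was at 18.4 ± 11.9 CPM in cucurbitacin I and 112 ± 39.6 CPM in DMSO (SD, n = 2 each; log2 fold change -2.61, edgeR adjusted p = 0.0153). The receptor gene Tie1 had a log2 fold change of -2.35 (edgeR adjusted p = 0.0375), lost without DMSO replicate 2 (0.13) or cucurbitacin I replicate 1 (0.068). Its partner receptor gene Tek did not pass (-1.01, edgeR adjusted p = 0.15), except without DMSO replicate 1 (-1.55, 0.024). Plxnd1, the semaphorin receptor gene of endothelium, fell by 1.49 (edgeR adjusted p = 0.011). Of the ephrin pair that separates arteries from veins, Ephb4 fell by 0.79 (edgeR adjusted p = 0.014) and Efnb2 by 0.90 (edgeR adjusted p = 0.0344). Leaving out DMSO replicate 1 ended both calls (edgeR adjusted p of 0.07 for Ephb4 and 0.15 for Efnb2), and that of Efnb2 also ended without cucurbitacin I replicate 2 (0.059).

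A pair of genes from the list of receptor partners, picked because they were higher, had the opposite sign. The perlecan gene Hspg2, whose heparan sulphate chains bind VEGF-A, was at 528 ± 167 CPM in cucurbitacin I and 243 ± 15.3 CPM in DMSO (SD, n = 2 each; log2 fold change 1.12, edgeR adjusted p = 0.0186). The integrin gene Itgav, whose product pairs with that of Itgb3, was at 235 ± 93.0 CPM in cucurbitacin I and 87.8 ± 3.74 CPM in DMSO (SD, n = 2 each; log2 fold change 1.42, edgeR adjusted p = 0.0153). Without DMSO replicate 1, Hspg2 (edgeR adjusted p = 0.099) and Itgav (0.073) did not pass, nor without DMSO replicate 2 (0.061 and 0.062).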
